A study of Mus musculus with 6 samples.

Results

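The Hox genes described here are the 39 protein-coding genes of the GENCODE mouse annotation named Hoxa, Hoxb, Hoxc or Hoxd plus a number, out of 21938 protein-coding genes in all. They lie in 4 clusters: 11 Hoxa genes on chromosome 6 (chr6:52155590-52260880 in mm10), 10 Hoxb genes on chromosome 11 (chr11:96194316-96368256), 9 Hoxc genes on chromosome 15 (chr15:102921103-103036852) and 9 Hoxd genes on chromosome 2 (chr2:74668310-74765142). A peak was assigned to a cluster when its summit fell between the first and the last gene or within 20 kb of them. These 4 windows cover 651.8 kb. They held 49 to 58 peaks in each library, out of lists of 179462 to 198929 peaks.

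Astrocyte nuclei of primary visual cortex (V1), taken at postnatal day 21, were profiled by ATAC-seq, an assay in which a transposase cuts accessible DNA. All mice were GR fl/fl, so both alleles of Nr3c1, the gene of the glucocorticoid receptor (GR), could be deleted by Cre. At postnatal day 0 to 1, GR-KO mice had received an AAV2/5 vector with the astrocyte promoter GfaABC1D, Cre, the nuclear envelope tag EGFP-KASH and the 4x6T element. GR-con mice had received the same vector with ΔCre, a form without recombinase activity. Cre thus acted in the cells in which GfaABC1D is active, and GFP-positive nuclei were sorted. There were 3 GR-con and 3 GR-KO libraries, each from 50000 nuclei of 3 to 4 pooled mice. Replicates are therefore pools of animals.

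Hox proteins are homeodomain transcription factors that give cells their position along the head-to-tail axis of the embryo. Genes at one end of a cluster (low numbers) are used in the hindbrain and those at the other end (high numbers) in the spinal cord and tail, while the forebrain, from which the cortex develops, forms without them. In cells that do not use them, the clusters are known to be covered by Polycomb proteins, and CTCF, an insulator protein, binds between the genes.

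The lists give peaks, not reads, so depth is unknown and a gene without a listed peak is not shown to be closed. Fold is the enrichment of a peak's summit over the local background of its own library, and the percentile of a peak is the share of the peaks of its own list with a lower fold. Promoter peaks were listed at 6 of 8 astrocyte marker genes in all 6 libraries (not at the annotated starts of Aldh1l1 and Aqp4), against 2 of 6 neuronal, 1 of 6 oligodendrocyte-lineage, 2 of 5 microglial and 3 of 5 endothelial or mural markers. Within single libraries the contrast was smaller. Each had a peak at 6 of 8 astrocyte, 3 or 4 of 6 neuronal and 3 or 4 of 5 endothelial or mural markers. It was 1 or 2 of 6 for the oligodendrocyte lineage and 2 of 5 for microglia, and Gad1 was the only neuronal marker without any. The median percentile was 63.6 for the astrocyte list, 37.7 for the neuronal list, 30.8 for the endothelial and mural list and 0 for the other lists, counting a missing peak as 0. The deletion of Nr3c1 cannot be checked from peaks. Its strongest promoter peak, at any annotated start, stood at 7.04-fold, 7.02-fold and 6.64-fold in GR-con libraries and at 6.28-fold, 6.27-fold and 5.91-fold in GR-KO libraries, a normal-score change of −0.08 that did not pass (standard error 0.07, adjusted p = 0.758, limma).

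Most Hox promoters carried no peak. Within 500 bp of the annotated gene start, 23 of 39 genes had no peak summit in any library, 13 had one in 1 to 5 libraries and 3 had one in all 6. The 3 were all in the Hoxa cluster: Hoxa4, Hoxa7 and Hoxa10. Among all protein-coding promoters, 56.6% had a peak in all 6 libraries and 37.7% in none, against 7.69% and 59.0% of Hox promoters. Each library had a peak at 8 to 12 Hox promoters (20.5 to 30.8%) and at 59.2 to 59.7% of all protein-coding promoters.

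**Figure D1:**
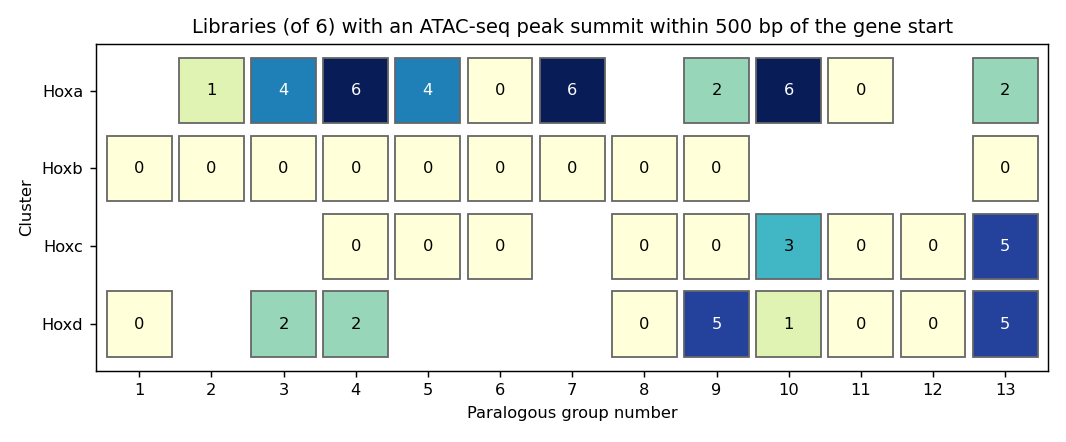
Each square is a Hox gene with values shown here, placed by cluster (vertical axis) and paralogous group number (horizontal axis), and the number and shade give the libraries (of 6) with a peak summit within 500 bp of the gene start. Hoxa4, Hoxa7 and Hoxa10 stand at 6, and the Hoxb row is at 0 throughout. Empty places are genes that the mouse does not have or that are not shown.

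The clusters differed in how many promoters carried a peak. In the Hoxa cluster most promoters had a peak in at least 1 library, and Hoxa6 and Hoxa11 had none. In the Hoxb cluster, none of 10 promoters did. In the Hoxc cluster the promoters of Hoxc10 and Hoxc13 had one and the other 7 (Hoxc4, Hoxc5, Hoxc6, Hoxc8, Hoxc9, Hoxc11 and Hoxc12) did not. In the Hoxd cluster 5 of 9 had one (Hoxd3, Hoxd4, Hoxd9, Hoxd10 and Hoxd13), while Hoxd1, Hoxd8, Hoxd11 and Hoxd12 did not. By position along the cluster, 6 of 12 genes of groups 1 to 4, 2 of 11 of groups 5 to 8 and 8 of 16 of groups 9 to 13 had a promoter peak in any library, and each of these classes held 1 of the 3 promoters with a peak in all.

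Hoxa7 had the highest promoter peak of all Hox genes. It is a gene of the middle of the cluster, used in the trunk of the embryo. Its fold was 20.5, 20.6 and 18.8 in the GR-con libraries and 19.4, 19.2 and 19.4 in the GR-KO libraries, which are percentiles of 93.9 to 95. The summit lay 47 to 61 bp downstream of the start, in the first exon. The folds of the groups overlapped, but the ranks did not: the percentiles were 94.9 to 95 in GR-con libraries and 93.9 to 94.6 in GR-KO libraries. Scored among all sites, the same peak had overlapping scores. In fold, GR-con libraries averaged 19.97 ± 1.01 and GR-KO libraries 19.4 ± 0.13 (SD, n = 3 each).

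The Hoxa4 promoter was more variable. This gene, towards the anterior end of the cluster, had folds of 12.5, 9.03 and 6.09 in GR-con and 11.6, 13.3 and 7.86 in GR-KO libraries. The lowest value of each group was below 8 and the ranges overlapped. The summit lay 173 to 209 bp upstream of the start. At Hoxa10, a posterior gene, the summit lay 287 to 319 bp downstream of the start. The fold was 8.32, 6.96 and 9.13 in GR-con and 5.78, 7.19 and 6.17 in GR-KO libraries. The lowest GR-con library was below the highest GR-KO library.

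Other promoters had a peak in only some libraries. The highest of these by mean percentile was Hoxd9, which had no peak in GR-con 1 and stood at percentiles of 23.5 to 61.4 in the other 5 libraries. Its fold reached 6.40 in GR-con 2, 3.72 in GR-con 3 and 5.06, 3.6 and 2.99 in the GR-KO libraries. At Hoxa5 the fold was 4.72 in GR-con 1, 4.40 in GR-con 3, 3.07 in GR-KO 1 and 3.79 in GR-KO 2, with none listed in the remaining library of either group. Hoxc13, the most posterior Hoxc gene, had folds of 4.16, 2.63 and 2.54 in the GR-con libraries, 4.51 in GR-KO 1 and 3.93 in GR-KO 3. Hoxd13, known for its part in digit and genital development, had folds of 3.90, 2.60 and 3.15 in the GR-con libraries, 3.67 in GR-KO 1 and 3.00 in GR-KO 3. At both of these genes GR-KO 2 was the library without a peak. Hoxa2, Hoxa3, Hoxa9, Hoxa13, Hoxc10, Hoxd3, Hoxd4 and Hoxd10 had a peak in 1 to 4 libraries with folds of 2.06 to 4.51. Hoxd3 and Hoxd4 have annotated starts 2 bp apart and share the same peaks.

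The annotated start used is the 5′ end of the gene record, which for Hoxa3, Hoxb3, Hoxc5, Hoxd3 and Hoxd4 is that of a long transcript. With a peak at any annotated start counted, 5 genes had a peak in all 6 libraries and 20 in none. The 2 additional genes were Hoxc5 (folds of 4.70 to 8.62) and Hoxd4 (5.48 to 9.54). The Hoxb cluster was still without a promoter peak.

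Hox promoters are rich in CpG dinucleotides, a sequence class that usually carries ATAC peaks. The ratio of observed to expected CpG within 500 bp of the start had a median of 0.678 for the 39 Hox genes and 0.552 for all protein-coding genes. Of the 10083 protein-coding promoters with a ratio of at least 0.6, 92.6% had a peak in all 6 libraries and 3.82% in none. Of the 25 Hox promoters above the same limit, 2 (8%) had a peak in all 6 and 12 (48%) in none. Hoxa5 had the highest ratio of the Hox genes, 0.996, and a peak in 4 libraries. Hoxb7, with 0.834, and Hoxc12, with 0.891, had none. The median ratio was lowest in the Hoxb cluster, at 0.472, against 0.651 to 0.721 in the other clusters. These shares are descriptions, since the genes of a cluster are not independent of each other.

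Other homeobox genes were listed beside them. Of 26 homeobox genes of the hindbrain, spinal cord and other posterior tissues, 8 (30.8%) had a promoter peak in all 6 libraries and 7 had none, among them Cdx1 and Cdx2, which act upstream of Hox genes in the embryo. Of 22 homeobox genes of the forebrain, 14 (63.6%) had a peak in all 6 and 6 had none, among them Otx2 and Six3. Genes that work with or on Hox clusters mostly had peaks. Of 11 cofactor genes, whose products bind DNA with Hox proteins or regulate them (the Pbx and Meis families and others), 10 had a peak in all 6 and only Pbx2 had none at its annotated start. Of 30 Polycomb and trithorax genes, with Ctcf, 25 had a peak in all 6 and 5 had none (Ash2l, Kdm6b, Pcgf2, Jarid2 and Cbx7).

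**Figure D2:**
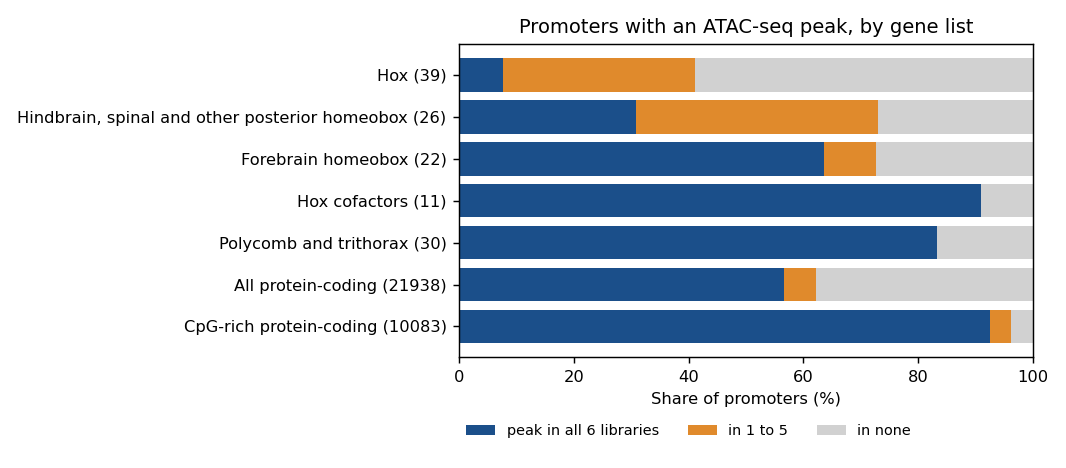
Bars give the share of promoters (%) with a peak summit within 500 bp in all 6 libraries, in 1 to 5 and in none, for each gene list with its number of genes. CpG-rich means a ratio of observed to expected CpG of at least 0.6; the Hox bar has the smallest share in all 6 (7.69%).

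Most sites with a peak in every library lay outside the Hox promoters. Across libraries, summits were merged into sites of 400 bp, and 53 sites with a summit in at least 2 libraries fell in the windows, 25 of them with a summit in all 6. The Hoxa window held 17 sites, Hoxb 13, Hoxc 6 and Hoxd 17. This is 8.13 sites per 100 kb, against 5.91 over the whole genome, and 3.84 against 3.66 per 100 kb for sites listed in all 6 libraries. Of the 25, only 3 were within 500 bp of a Hox gene start (the promoters named above) and 22 were further from the 5′ ends of the gene records, at a median distance of 3764 bp over the 25. The sites at the other annotated starts of Hoxc5 and Hoxd4 given above are among the 22. By annotation, 4 of the 25 were at a protein-coding gene start, 4 in other exons, 8 in introns and 9 between genes. In the Hoxb window, where no promoter had a peak, 8 sites were listed in all 6 libraries.

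The 53 sites fell into 2 ranges of height. The 25 sites listed in all 6 libraries had mean percentiles of fold from 65.6 to 99.4, and the 28 others from 3.63 to 35.4, with none between. Over the genome, 22.9% of sites lay in the interval between these ranges, and 44.2% of the sites listed in all 6 libraries were below 65.6. A site listed in fewer libraries has a lower mean by construction, since a missing peak counts as 0. Within 500 bp of a protein-coding gene start were 12 of the 53 Hox sites (22.6%, against 10.1% of all sites in the genome), 4 of the 25 listed in all 6 libraries (16%, against 13.5%) and 2 of the 17 at a mean percentile of 75 or above (11.8%, against 21.6%). The Hox share was thus the higher one over all sites and the lower one only among the highest.

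**Figure D3:**
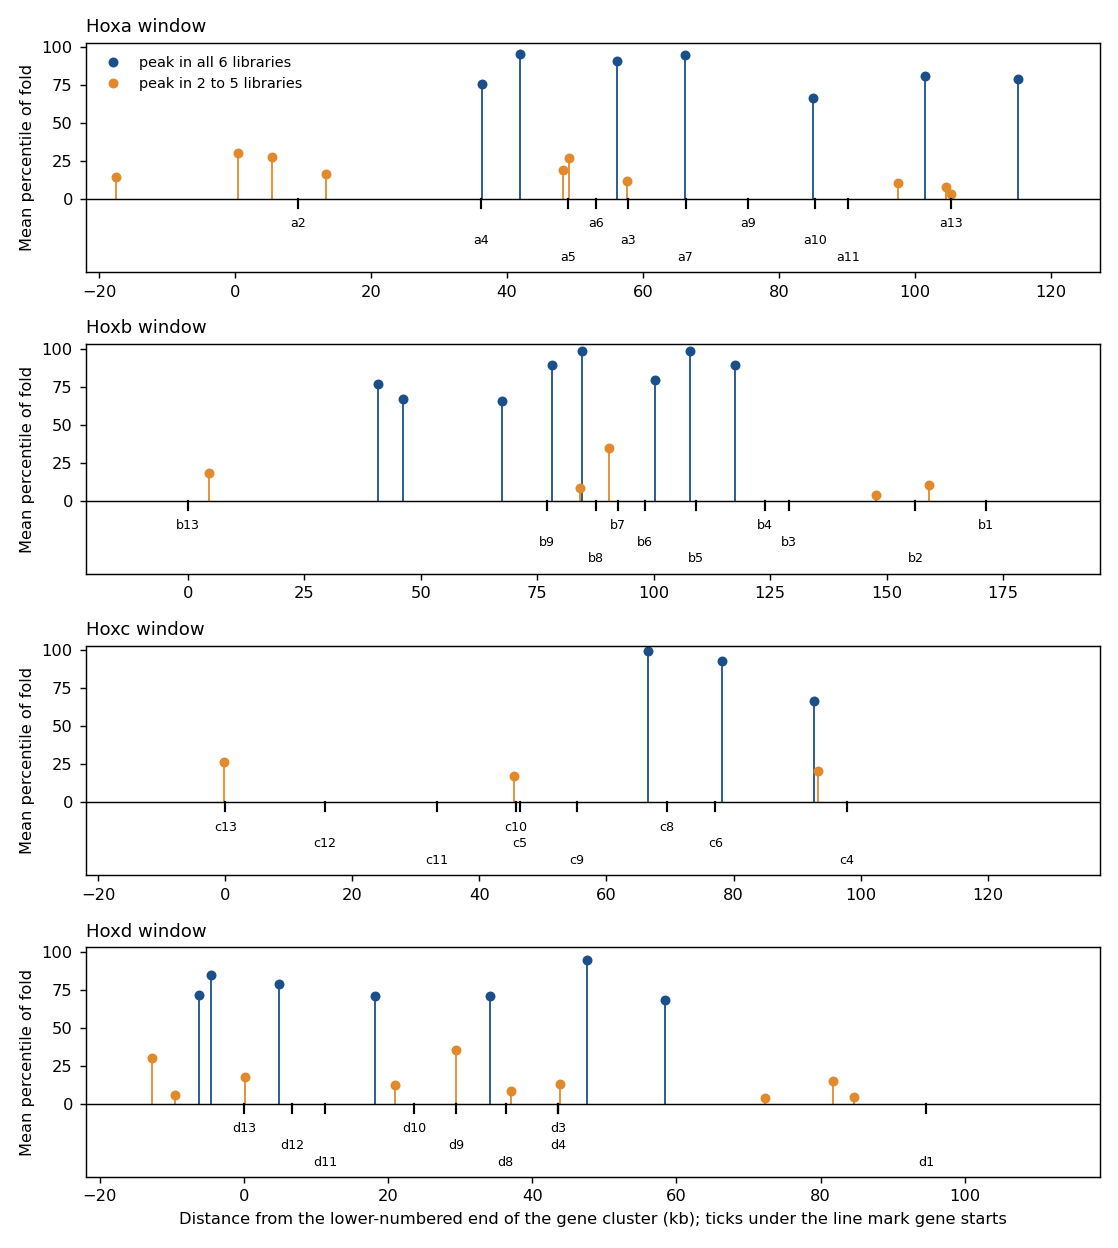
Each panel is a Hox window, with the distance from the lower-numbered end of the cluster in kb on the horizontal axis and the mean percentile of fold over 6 libraries on the vertical axis. Stems are the 53 sites, blue where all 6 libraries had a peak and orange where 2 to 5 had; ticks under the line mark annotated starts of Hox genes. The blue stems all stand at 65.6 or above, mostly away from the ticks, and the orange stems at 35.4 or below.

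The site with the highest mean percentile in the windows lay 3004 bp upstream of Hoxc8 (chr15:102987403-102987802), within an intron of the long Hoxc5 record. Hoxc8 acts in the thoracic region of the embryo. The fold was 29.3, 29.3 and 28.1 in GR-con and 28.7, 27.3 and 24.0 in GR-KO libraries, percentiles of 98.3 to 99.7. The second lay 2941 bp upstream of Hoxb8 (chr11:96278764-96279163), between Hoxb9 and Hoxb8. Its fold was 27.8, 20.7 and 24.5 in GR-con and 26.0, 28.0 and 30.3 in GR-KO libraries. The third lay 1303 bp upstream of Hoxb5 (chr11:96301833-96302232), in an intron of the antisense gene Hoxb5os. Its fold was 25.6, 24.4 and 23.3 in GR-con and 23.9, 24.4 and 24.9 in GR-KO libraries. These 3 sites ranked above every Hox promoter, while the promoters of Hoxc8, Hoxb8 and Hoxb5 themselves had no listed peak.

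The fourth site lay 5717 bp upstream of Hoxa4 (chr6:52197270-52197669), between Hoxa4 and Hoxa5 and in introns of the long Hoxa3 record and the antisense gene Hoxaas3. Its fold was 19.7, 21.9 and 20.5 in GR-con and 20.6, 25.8 and 18.5 in GR-KO libraries. The fifth outside protein-coding promoters, just below the Hoxa7 promoter in mean percentile, lay 4010 bp downstream of the annotated Hoxd4 start (chr2:74715739-74716138), 57 bp from an annotated start of the antisense gene Hoxd3os1. Its fold was 18.7, 24.8 and 18.4 in GR-con and 20.4, 20.3 and 16.8 in GR-KO libraries. The folds of the 2 conditions overlapped at 5 of these 5 sites. The summits of the 6 libraries lay within 20 bp of the site centre at each of them.

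The central 120 bases of the first 3 sites, which lie outside promoters, UTRs and coding exons, are shown because these sites carry the highest peaks of the clusters outside protein-coding promoters. They are from the RefSeq GRCm38.p6 assembly, plus strand, 5′ to 3′. Capitals mark the 12 bases nearest to the CTCF core consensus on either strand, where they differ from it at no more than 2 positions.
Upstream of Hoxc8, chr15:102987543-102987662: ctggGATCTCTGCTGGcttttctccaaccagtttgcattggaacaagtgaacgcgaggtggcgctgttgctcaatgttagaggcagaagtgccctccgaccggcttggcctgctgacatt
Upstream of Hoxb8, chr11:96278904-96279023: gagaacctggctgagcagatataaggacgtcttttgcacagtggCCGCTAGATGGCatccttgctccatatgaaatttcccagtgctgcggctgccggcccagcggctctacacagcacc
Upstream of Hoxb5, chr11:96301973-96302092: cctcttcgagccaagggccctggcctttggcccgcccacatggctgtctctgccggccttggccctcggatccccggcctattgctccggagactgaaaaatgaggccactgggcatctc
The stretch upstream of Hoxb8 differed from the consensus at 1 position, on the plus strand. The stretch at Hoxc8 differed at 2 positions, on the minus strand, and no stretch of the Hoxb5 site came within 2. The marked stretch at Hoxc8 lies near the left end of the printed bases, away from the site centre. Stretches that differ at more than 2 positions are not marked, also where they lie at the centre. The marks are matches in letters to a short consensus, and binding of CTCF was not tested.

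Over the 200 bp around each site centre, no Hox site held an exact match to the CTCF core consensus on either strand, against 3.94% of all 160980 sites. With 1 difference allowed, 9 of 53 Hox sites (17%) held a match, against 13.3% of all sites, and with 2 allowed 26 (49.1%) against 33.4%. Among the sites listed in all 6 libraries the shares with up to 2 differences were 68% of the 25 Hox sites and 38.1% of all 99795. The GR palindrome was found at no Hox site, against 0.325% of all sites, a share too low for 53 sites to show a difference. Its 6-base part AGAACA was found at 2 Hox sites (3.77%) and at 17.3% of all sites. The homeodomain motif TAATTA was found at none of the 53 against 5.81%, TGATNNAT, bound by Pbx with Hox proteins, at 1 (1.89%) against 4.9%, and TGACAG, bound by Meis proteins, at 5 (9.43%) against 13.7%. Among the sites listed in all 6 libraries the order for TGACAG was the opposite, 4 of 25 Hox sites (16%) against 13.2%. Both strands were read, and none of these short motifs contains another. The Hox sites had a higher GC content (median 62% against 51.5%), on which the chance of each word depends. Its part in these shares was not tested.

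Non-coding genes that start in the windows were mostly without promoter peaks, a share that was not compared with non-coding genes elsewhere. Of 49 non-coding genes that start in the windows, 39 had no peak summit within 500 bp of the start in any library and 3 had one in all 6: Hoxd3os1, Gm27861 and 9530018H14Rik. The peak at Hoxd3os1 is the fifth site above. At 9530018H14Rik, between Hoxa11 and Hoxa13, the fold was 13.5, 11.5 and 11.3 in GR-con and 11.1, 12.1 and 9.76 in GR-KO libraries. At the starts of Hotair, Hottip, Hotairm1 and Haglr, long non-coding RNAs known from studies of Hox regulation, no peak was listed. Of the 7 miRNA genes, among them Mir10a, Mir10b and the Mir196 genes, none had a peak in all 6 and 5 had none. Of the 20 genes of lncRNA type, 1 had a peak in all 6 and 16 had none.

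The comparison of GR-KO with GR-con asks whether loss of the receptor in astrocytes changed accessibility at these genes. No Hox promoter and no site in the Hox windows passed the test. Folds were ranked within each library over all sites or promoters, the ranks were turned into normal scores, and the scores were compared with limma. Missing peaks of a library tie at the same low score, so the mean and SD of the scores are only near 0 and 1. Of all 160980 sites, 203 (0.126%) were called lower and 98 (0.0609%) higher in GR-KO at an adjusted p below 0.05, and of 13316 promoters 5 (0.0375%) lower and 1 (0.00751%) higher. None of the 53 Hox sites and none of the 13 Hox promoters tested were called (limma, smallest adjusted p 0.0887 for sites). The 13 are the promoters with a peak in at least 2 libraries. Among those that did not pass this filter only through GR-KO libraries, the smallest adjusted p was 0.528, at Hoxa10 (limma). At an unadjusted p below 0.05 there were 5 of 53 Hox sites (9.43%; 2 of the 5 passed the filter only through GR-KO libraries), against 12.1% of all sites, and 2 of 13 Hox promoters (Hoxd3 and Hoxd4, which share their peaks and passed the filter only through GR-KO libraries), against 9.47% of all promoters.

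**Figure D4:**
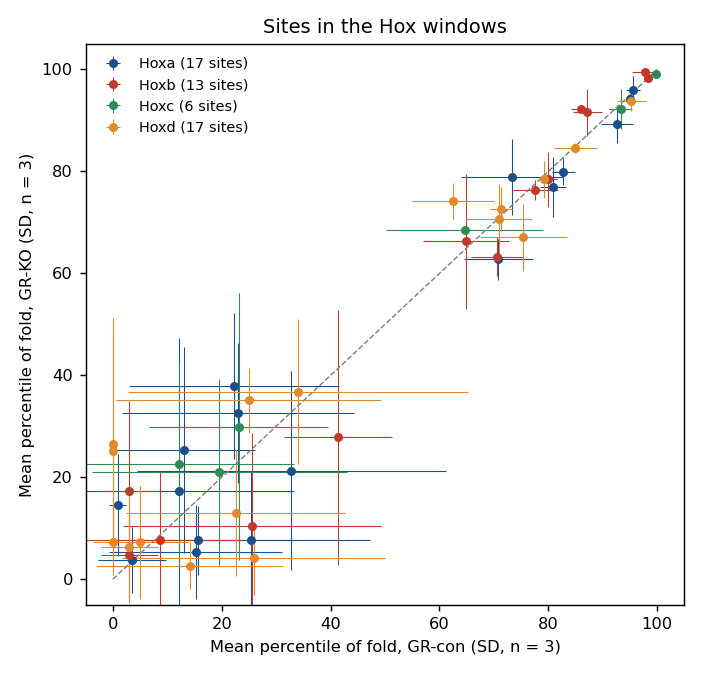
Each point is 1 of the 53 Hox sites, with the mean percentile of fold in GR-con on the horizontal and in GR-KO on the vertical axis, bars of 1 SD (n = 3 libraries) and colours for the 4 windows. Points lie around the dashed line of equal values, and bars are widest at the lower left, where some libraries had no peak.

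The smallest p among the sites was in the Hoxb9 gene, 989 bp downstream of its start (chr11:96272246-96272645), in the intron. Hoxb9 is a posterior gene of its cluster. The fold was 15.1, 13.7 and 12 in GR-con and 18.3, 17.2 and 17.6 in GR-KO libraries. Every GR-KO library was above every GR-con library, at percentiles of 91.5 to 92.6 against 84.7 to 87.9. The score was higher in GR-KO by 0.36 (standard error 0.07, adjusted p = 0.0887, limma; 0.0774 to 0.246 as the smallest among Hox sites over the alternative settings), so it missed the threshold of 0.05 in each. The peak was 484 to 536 bp wide in GR-con and 694 to 732 bp in GR-KO libraries.

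The next sites higher in GR-KO were 19 bp from the start of Gm28230, annotated as protein-coding in the Hoxd cluster (chr2:74726547-74726946), and the shared start of Hoxd3 and Hoxd4. The peak at Gm28230 is also the one given above at another annotated start of Hoxd4, listed in all 6 libraries. At Gm28230 the fold was 5.48, 8.28 and 5.75 in GR-con and 7.95, 9.46 and 9.54 in GR-KO libraries. These folds overlap, while the scores of the groups did not. The score was higher by 0.33 (standard error 0.11, adjusted p = 0.282, limma). At the Hoxd3 and Hoxd4 start no GR-con library had a peak, GR-KO 1 and 2 had folds of 4.51 and 3.41, and GR-KO 3 had none. Since this start passed the filter of 2 libraries only through GR-KO, its direction was fixed beforehand. It is in the counts at an unadjusted p below 0.05 above (limma), from which nothing is concluded for it.

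The smallest p among the sites that were lower in GR-KO were those of the Hoxa10 promoter, the site upstream of Hoxc8 and a site 31044 bp upstream of Hoxb9 in the gap between Hoxb13 and Hoxb9 (chr11:96240213-96240612). At Hoxa10 the score changed by −0.17 as a site (standard error 0.10, adjusted p = 0.514, limma) and by −0.18 as a promoter (standard error 0.08, adjusted p = 0.528, limma). Upstream of Hoxc8 it was −0.31 (standard error 0.19, adjusted p = 0.532, limma). At the Hoxb9 site the fold was 7.75, 7.53 and 8.79 in GR-con and 7.22, 5.87 and 6.36 in GR-KO libraries, and the score changed by −0.15 (standard error 0.09, adjusted p = 0.539, limma). Its folds did not overlap between the conditions, but its scores did. Among promoters that were lower, Hoxa7 differed by −0.13 (standard error 0.08, adjusted p = 0.642, limma; as a site −0.05 with overlapping scores, standard error 0.06, adjusted p = 0.790) and Hoxd13 by −0.12 (standard error 0.22, adjusted p = 0.903, limma).

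The remaining named sites and promoters did not pass either. In normal score, GR-KO minus GR-con was 0.52 (standard error 0.26, adjusted p = 0.449, limma) upstream of Hoxb8, where 1 GR-con library was low, 0.008 (standard error 0.105, adjusted p = 0.987, limma) upstream of Hoxb5, 0.13 (standard error 0.19, adjusted p = 0.836, limma) between Hoxa4 and Hoxa5, and −0.15 (standard error 0.16, adjusted p = 0.758, limma) at Hoxd3os1. It was 0.17 (standard error 0.17, adjusted p = 0.788, limma) at the Hoxa4 promoter.

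**Figure D5:**
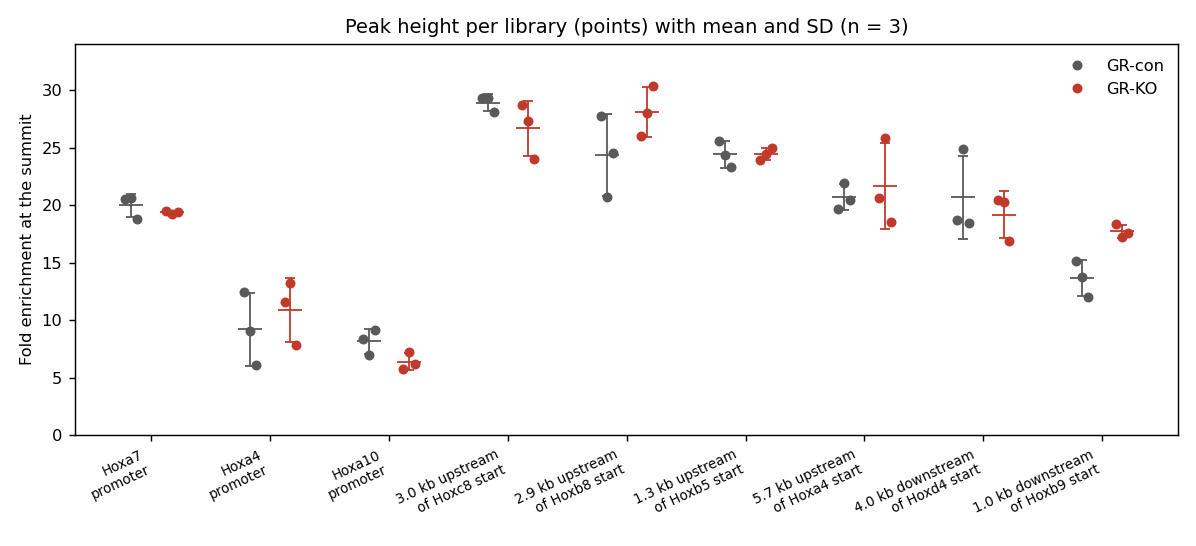
Points are the fold enrichment (vertical axis) in each library at 3 promoters, the 5 highest sites outside protein-coding promoters and the Hoxb9 intron site, with the mean and SD of 3 GR-con (grey) and 3 GR-KO (red) libraries. The groups overlap at each of the first 8 and are apart at the Hoxb9 site, which was chosen for its small p.

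Counted together, the Hox sites differed little between the conditions. The score was higher in GR-KO at 32 of 53 sites (60.4%, against 53.3% of all sites), with a median difference of 0.06 against 0.02 for all sites. Among the 25 sites listed in all 6 libraries it was higher at 13 (52%, against 54.2% of all such sites, median difference 0.0002). It was higher at 7 of 13 promoters (53.8%, against 52.6% of all promoters), with a median difference of 0.06 against 0.008 for all promoters. The 7 include Hoxd3 and Hoxd4, which share their peak and whose direction the filter fixed. The scores of the 2 groups did not overlap at 8 of 53 sites (15.1%), against 19.2% of all sites, and at 3 of 13 promoters (Hoxa7, Hoxd3 and Hoxd4), against 15.6% of all promoters. These counts include 3 of the 8 sites and the shared peak of Hoxd3 and Hoxd4, which had no peak in any GR-con library nor in 1 GR-KO library. They were tested only because of their GR-KO peaks, which fixes their direction, and the missing peaks of both groups differ only in how each library scores them. Among the 25 sites listed in all 6 libraries the groups did not overlap at 4 (16%), of which 3 were higher in GR-KO and the one upstream of Hoxc8 was lower. The share over all sites of the genome listed in all 6 libraries was not computed, so no direction is read from this count. Sites listed in 2 or 3 GR-KO and in no GR-con library numbered 3 of 53 (5.66%), against 2.96% of all sites, and there was none of the opposite kind, against 4.4% of all sites. The 3, named after their values were seen, were the Hoxd3 and Hoxd4 start, a site 2628 bp upstream of Hoxd10 (folds of 3.25 and 4.35 in GR-KO 1 and 2) and a site in an intron of the long Hoxd3 record (2.53 and 2.43 in GR-KO 1 and 3). All 3 lie in the Hoxd window and have low peaks.

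The number of Hox promoters with a peak was 8, 8 and 9 in GR-con and 12, 10 and 8 in GR-KO libraries. The means of 8.33 ± 0.58 and 10.0 ± 2.00 (SD, n = 3) were not told apart (exact permutation test, two-sided, p = 0.4). The higher mean rests largely on GR-KO 1: without it the difference of 1.67 becomes 0.667, and with any annotated start counted, or only peaks that cover the start, it is 0.333. Per 10000 peaks of the list, the windows held 2.91, 2.87 and 2.46 peaks in GR-con and 3.18, 3.15 and 2.93 in GR-KO libraries. Every GR-KO library was above every GR-con library, but this separation was lost with peaks of q-value below 0.01 (exact permutation p = 0.5) and with equal list lengths (exact permutation p = 0.3). The exact permutation test gave p = 0.3 over the clusters alone and p = 0.2 with each peak region counted once. The means were 2.75 ± 0.248 and 3.09 ± 0.134 (SD, n = 3; exact permutation test, two-sided, p = 0.1, the smallest that 3 against 3 libraries can give; adjusted p = 0.333 over the 4 windows together and each alone). Without GR-con 3, which has the longest list, the difference of 0.339 becomes 0.196. The Hoxd window had 1.17 peaks per 10000 in GR-KO 1 and 0.704 to 0.761 in the other 5 libraries, and the Hoxc window was the only one with a lower mean in GR-KO (0.347 against 0.421, exact permutation p = 0.2).

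None of the other lists, the marker lists included, had a called promoter. Among 15 tested forebrain homeobox genes the smallest p were those of Cux2 and Dlx5, among 14 posterior homeobox genes those of Lbx1 and En1, among 10 cofactor genes those of Pbx4 and Pbx3, and among 25 Polycomb and trithorax genes those of Ezh1 and Cbx6. The smallest adjusted p was at Ezh1, which encodes a catalytic subunit of the Polycomb complex that methylates histone H3. Its fold was 12, 12 and 11.8 in GR-con and 17.2, 16.8 and 15.2 in GR-KO libraries, every GR-KO library being higher. The score was higher in GR-KO by 0.43 (standard error 0.06, adjusted p = 0.0732, limma). At Lbx1, a homeobox gene of the dorsal spinal cord and muscle, the fold was 7.13, 5.46 and 6.69 in GR-con and 2.17, 4.73 and 2.81 in GR-KO libraries (difference −0.58, standard error 0.15, adjusted p = 0.307, limma). The median difference was 0.05 for the forebrain, 0.01 for the posterior, 0.03 for the cofactor and −0.002 for the Polycomb and trithorax list, against 0.008 for all promoters tested. It was 0.06 for the astrocyte, −0.01 for the neuronal, −0.02 for the oligodendrocyte-lineage, 0.16 for the microglial and 0.20 for the endothelial and mural list, with 6, 4, 2, 2 and 4 promoters tested. The 2 microglial promoters went opposite ways. At Tmem119 the fold was 3.78, 4.89 and 6.42 in GR-con and 7.76, 6.81 and 8.98 in GR-KO libraries, with every GR-KO library higher (score difference 0.37, standard error 0.11, adjusted p = 0.357, limma). At P2ry12 it was 7.40, 11.2 and 9.71 against 9.11, 7.26 and 10.7, with overlapping groups (score difference −0.04, standard error 0.11, adjusted p = 0.938, limma). At Pdgfrb, a mural marker, it was 7.76, 9.21 and 8.52 against 10.2, 11.3 and 9.83, again with every GR-KO library higher (score difference 0.19, standard error 0.06, adjusted p = 0.404, limma). The part of other cell types in the Hox values was not tested.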

How the data were processed

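ATAC-seq peak lists of 3 GR-con and 3 GR-KO libraries were analysed. Reads were processed by the authors with the ENCODE ATAC-seq pipeline, and peaks were called in each library alone on mm10, the build in the submitters' processing notes. The deposited lists give a capped score (not used for ranking), the fold over local background (a ratio), the −log10 p and the −log10 q-value of each summit, as the authors made them. The lowest deposited −log10 p was 2. Several summits can share a region, and each was counted. Between 136 and 202 peak numbers per list have no row and are not analysed here. No read counts were used, so the edgeR comparison of the study was not repeated and depth is unknown.

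Gene positions were from GENCODE release M21. No peak ended beyond its chromosome in GRCm38 (0 of 1116429). Sites were windows of 400 bp around summits, taken in order of within-list rank without overlap, and kept with a summit in at least 2 libraries. Promoters reached 500 bp to each side of the gene record's 5′ end. The highest fold was ranked in each library and the normal scores were compared with limma 3.58.1 (R 4.3.3; variance trend, no block, Benjamini-Hochberg adjustment over all sites or promoters). Counts per library were compared by an exact permutation test. Sequence was read with pysam 0.24.0 in Python 3.11.15. The limma step was tested on simulated data.

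Named were the 6 Hox promoters and 5 sites outside protein-coding promoters of highest mean percentile, the 3 of smallest p in each direction, and 2 of each list. Hox promoters with a peak in all libraries of 1 condition and none of the other were to be named, and there were none. The members and lists were chosen with earlier results of these data known, and the motifs after seeing the sites. Alternatives were ranking by −log10 p, peaks of q-value below 0.01, lists cut to 1 length, presence in 1 or 3 libraries, no variance trend, other promoter widths and starts, coverage in place of summits, blocking by replicate number and each library left out in turn. Certain items are not reported here.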

Additional observations from a re-analysis of the deposited data

How the results depend on the processing

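No Hox site and no Hox promoter was called under any of the 14 and 16 alternatives run (limma; unadjusted p below 0.05 at 2 to 7 sites and 0 to 3 promoters). The smallest adjusted p was 0.0774 for sites (at least 3 libraries) and 0.0991 for promoters (1000 bp to each side, at Hoxb9, where the wider window takes in its intron site). The replicate numbers do not pair the libraries (correlations of same-numbered deviations of 0.029, −0.005 and 0.025), and with the replicate block 0 Hox sites and 0 Hox promoters were called. Genome-wide calls moved more: 301 sites became 2578 when ranked by −log10 p, 1840 without the variance trend, 691 by coverage, 0 with the replicate block and 0 to 2 with a library left out. The 6 promoters became 0 with the block, 0 to 14 with a library left out, 10 by −log10 p, 14 without the trend, and 13, 9 and 15 with 1000 bp, 250 bp and any annotated start. The causes were not tested. The difference in Hox promoters with a peak was 0.333 to 2 over the settings and 0.667 to 2.67 with a library left out, and in peaks per 10000 it was 0.232 to 0.353 and 0.196 to 0.42. With a library left out, differences that were not called changed sign at Hoxb5 (−0.0461 to 0.0633), between Hoxa4 and Hoxa5 (−0.107 to 0.292), at Hoxd3os1 (−0.279 to 0.0457), and at the promoters of Hoxd9 (−0.17 to 0.49), Hoxa5 (−0.479 to 0.143), Hoxc13 (−0.128 to 0.385) and Hoxd13 (−0.303 to 0.127). With a library left out, differences that were not called kept their sign but moved by over 1.5 times at the Hoxa4 promoter (0.17; 0.015 without GR-con 3, 0.055 without GR-KO 2, 0.343 without GR-con 1, 0.318 without GR-KO 3), upstream of Hoxc8 (−0.31; −0.154 without GR-KO 3), upstream of Hoxb8 (0.52; 0.286 without GR-con 2, 0.331 without GR-KO 3), 31044 bp from Hoxb9 (−0.15; −0.0969 without GR-con 3), and at the Hoxa10 promoter and site (−0.18 and −0.17; −0.119 and −0.108 without GR-con 3). Ranked by −log10 p, the difference upstream of Hoxc8 became −0.0743, upstream of Hoxb8 0.147, upstream of Hoxb5 0.161 (from 0.008), between Hoxa4 and Hoxa5 0.0517 (from 0.13), at Hoxd3os1 −0.0258 (from −0.15), in the Hoxb9 intron 0.235 (from 0.36), and at the promoters of Hoxa7 −0.035 (from −0.13), Hoxa10 −0.095 and Hoxc13 0.0886 (from 0.055). The Hoxc13 promoter moved further under other settings: 0.223 with q-values below 0.01, 0.192 with equal list lengths and 0.1765 with 250 bp to each side. With 1000 bp to each side the Hoxa5 promoter went from −0.12 to −0.034. Unknown depth limits every statement on a missing peak.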
